A study of Mus musculus with 15 samples.

Results

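The stress axis genes described here were 8 genes chosen by symbol from the gene counts of mouse dentate gyrus, namely the corticosteroid receptors Nr3c1 (glucocorticoid receptor) and Nr3c2 (mineralocorticoid receptor), the receptor cochaperone Fkbp5, the steroid-activating enzyme Hsd11b1, the glucocorticoid-induced genes Sgk1 and Tsc22d3, and the corticotropin-releasing hormone receptors Crhr1 and Crhr2. All 8 were present among 32657 counted features, of which 23117 had a count in some library.

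The study compared mice lacking functional serotonin receptor 4 in hippocampal neurons with wild-type (WT) mice along the dorsoventral axis of the dentate gyrus (DG). Every animal carried the Drd3-Cre KI198 transgene and the Rosa26-fsTRAP reporter, a Cre-dependent EGFP-tagged ribosomal protein L10a, and the conditional knockouts (cKO) carried the Htr4-Floxed allele as well, in which Cre removes exon 5. Translating ribosome affinity purification (TRAP) isolated the polysome-bound mRNA of the Cre-expressing cells (IP) from the ventral DG (vDG), and whole tissue mRNA (input) was taken from the vDG and the dorsal DG (dDG) of adult mice aged 8 to 12 weeks. The groups were WT vDG IP, WT vDG input and WT dDG input with 3 libraries each, and cKO vDG IP, cKO vDG input and cKO dDG input with 2 libraries each. The KI198 transgene does not fully follow the expression of Drd3 and labels granule cells, hilar mossy cells and some CA pyramidal cells, and the number of mice per library is given as 3 for IP and 2 for input in the labels but as 1 male and 1 female per replicate in the methods, so pool size is uncertain. The labels of the input libraries also carry a source name of whole cortex, against titles that name the DG.

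Corticosterone, the glucocorticoid of rodents, crosses into the brain and binds mineralocorticoid receptors at low levels and glucocorticoid receptors when levels rise with stress. Both receptors are transcription factors held by chaperones in the cytoplasm until the steroid binds, and the hippocampus is known for expressing both. Hsd11b1 regenerates active steroid from its inactive keto form, Fkbp5 lowers the affinity of the receptor for the steroid and is itself induced by it, and Sgk1 (a kinase) and Tsc22d3 (the leucine zipper protein GILZ) are classical induced genes. Crhr1 and Crhr2 are G protein-coupled receptors for corticotropin-releasing hormone and the urocortins.

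Libraries held 19039295 to 30451430 gene counts, and no pair of libraries was identical. The tissue labels were checked against markers. Trhr, a ventral DG gene, lay at 14.6 to 31.8 CPM (normalised read counts scaled to a common library size) in the vDG inputs and at 0.117 to 0.719 CPM in the dDG inputs, and Lct, a dorsal DG gene, at 29.7 to 48.3 CPM against 128 to 180 CPM. The IP fraction was low in markers of other cell types, with 6 of 6 astrocyte markers, 6 of 6 microglial markers, 8 of 9 oligodendrocyte lineage markers and 7 of 8 interneuron markers below the input in WT mice, and 3 of 6 granule cell markers above it. Total Htr4 counts, summed over all exons, were higher in cKO libraries (26.97 to 30.2 CPM against 13.5 to 16.02 CPM in vDG IP), so they give no check of the loss of exon 5. In whole tissue, fewer cells of a type and less RNA per cell cannot be told apart. Separate cultures or litters behind the replicates are not named, so p-values measure the spread between these pooled libraries.

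Positions are those of the GRCm38 (mm10) annotation. Nr3c1 spans chr18:39410545-39519421 on the minus strand with 7684 exonic bases, Nr3c2 chr8:76899442-77245012 on the plus strand with 6474 exonic bases, Fkbp5 chr17:28399094-28517527 (minus), Hsd11b1 chr1:193221634-193264075 (minus), Sgk1 chr10:21882184-21999903 (plus), Tsc22d3 chrX:140539528-140600659 (minus), Crhr1 chr11:104132855-104175523 (plus) and Crhr2 chr6:55090049-55133016 (minus). The counts covered the exons of each gene, untranslated regions included. Nr3c2 shares 247 exonic bases with Gm10649, and reads from those bases cannot be assigned with certainty, while the other 7 genes share no exonic base with another annotated gene.

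Per kilobase of exon, Nr3c2 was the most abundant of the 8 genes in each of the 6 groups, from 24.2 CPM per kb in cKO vDG input to 37.7 CPM per kb in WT dDG input. Nr3c1 (9.28 to 14.3 CPM per kb) and Sgk1 (8.94 to 13.8 CPM per kb) held the next ranks in every group. Fkbp5 (5.86 to 8.54 CPM per kb) and Tsc22d3 (2.99 to 8.18 CPM per kb) followed, and Hsd11b1 and Crhr1 came after them. Crhr2 was the lowest in every group, at 0.0694 to 0.203 CPM per kb, on 6 to 28 counts per library. Both CRH receptors thus rested on few counts, with 29 to 117 per library for Crhr1.

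**Figure D1:**
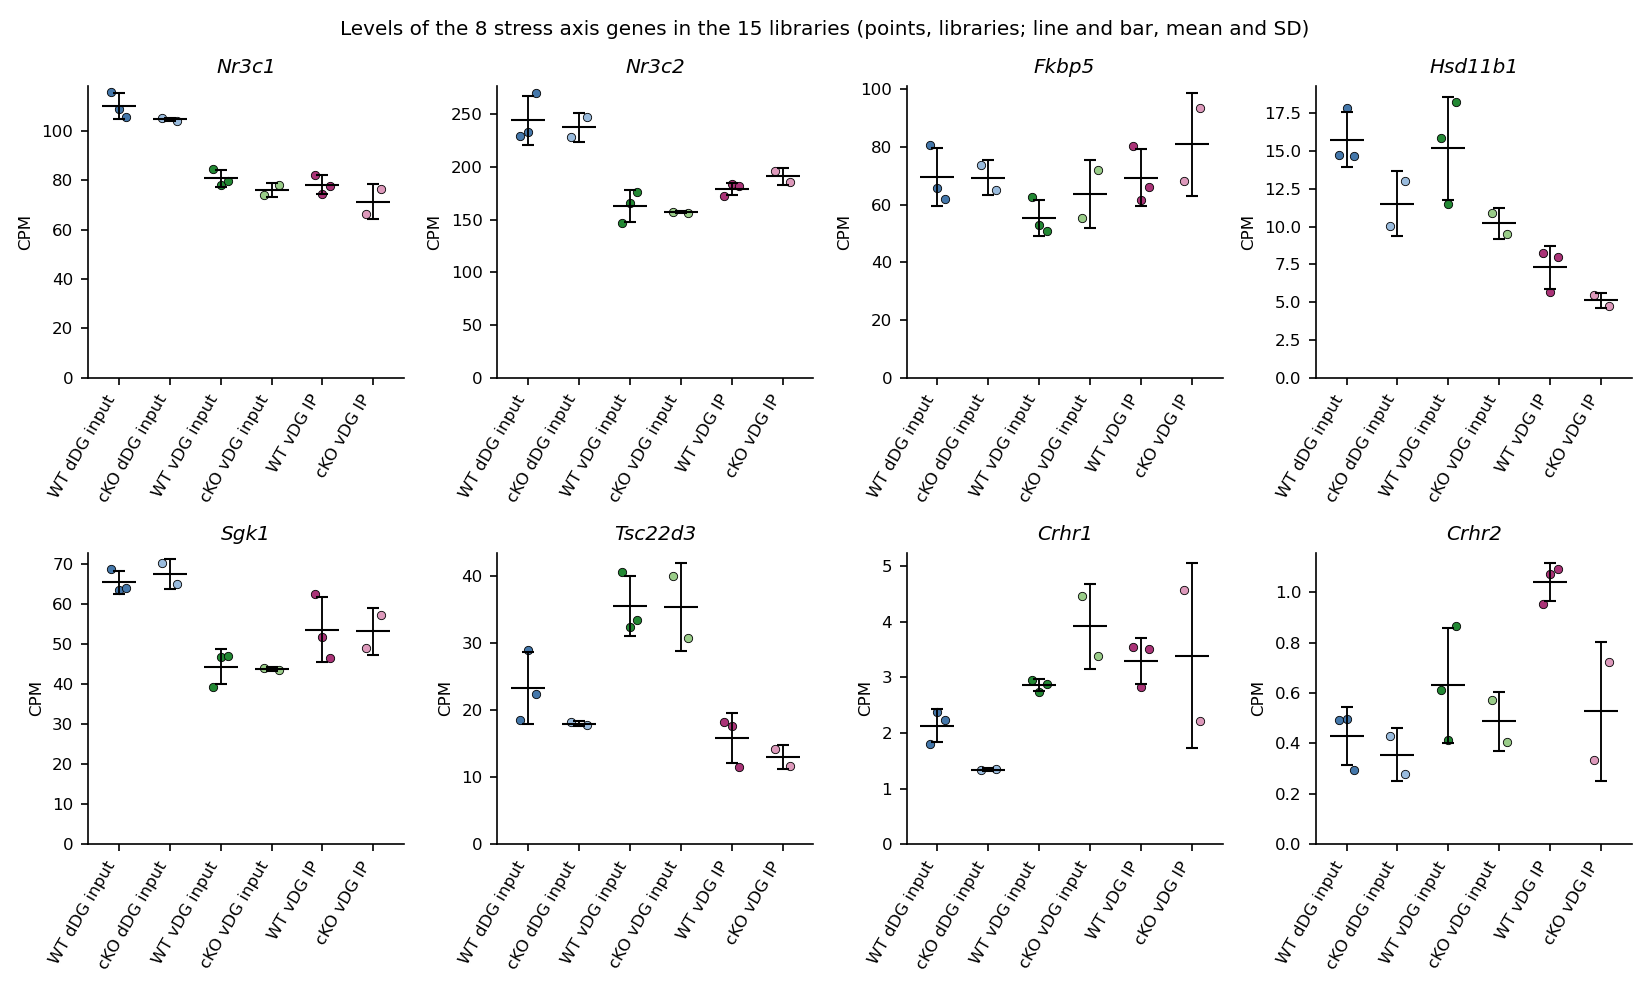
Level of each of the 8 genes in CPM (vertical axis, from 0) in the 15 libraries of the 6 groups (horizontal axis). Points are libraries, and the line with its bar is the mean and SD of 3 WT or 2 cKO libraries. Nr3c1, Nr3c2 and Sgk1 sit higher in every dDG input than in every vDG input, Tsc22d3 and Crhr1 the other way round, and Hsd11b1 and Tsc22d3 sit lower in every IP library than in every vDG input.

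The comparison of vDG with dDG input asks how the genes vary along the dorsoventral axis. Both corticosteroid receptors and Sgk1 were lower in the vDG than in the dDG by 1.37- to 1.55-fold, and Tsc22d3 was higher in the vDG by 1.52-fold in WT and 1.96-fold in cKO mice. In WT mice 4 of the 8 genes passed a false discovery rate (FDR) of 0.05 over all genes, against 15.3% of the 15412 genes tested, and in cKO mice 5 of 8, against 17% of 15505 genes. The WT and cKO libraries of this comparison are separate, and the genes called in WT mice were called with the same sign in cKO mice. The median log2 fold change of the 8 genes was -0.20 in WT and -0.15 in cKO, beside -0.0076 and 0.0084 over all genes. Of all called genes 1427 of 2365 were higher in the WT vDG and 1328 of 2642 in the cKO vDG, and scaling by library size alone made the latter 1778 of 2721 with the same count of 5 members.

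Nr3c1 measured 115.7, 109.0 and 105.6 CPM in the WT dDG inputs, against 84.8, 78.3 and 79.7 CPM in the WT vDG inputs. The cKO inputs gave 105.2 and 104.3 CPM in the dDG, and 74.2 and 78.1 CPM in the vDG. All 5 dDG libraries lay above all 5 vDG libraries. The fitted log2 fold change was -0.45 (SE 0.106, FDR 0.00733) in WT and -0.47 (SE 0.112, FDR 0.00614) in cKO mice.

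Nr3c2 measured 229, 233 and 271 CPM in the WT dDG inputs and 147, 166 and 176 CPM in the WT vDG inputs. In the cKO inputs it measured 228 and 247 CPM in the dDG, and 158 and 156 CPM in the vDG. The regions did not overlap in either genotype, and the highest vDG library stood at 176 CPM where the lowest dDG library stood at 228 CPM. The log2 fold change was -0.59 (SE 0.115, FDR 0.00162) in WT and -0.60 (SE 0.109, FDR 0.000527) in cKO mice.

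The ratio of mineralocorticoid to glucocorticoid receptor mRNA, per kilobase of exon, is a common way to state the balance of the pair. In WT mice it was 2.64 ± 0.358 (SD, n = 3) in the dDG input and 2.396 ± 0.302 (SD, n = 3) in the vDG input, and it was 2.69 ± 0.169 (SD, n = 2) and 2.45 ± 0.104 (SD, n = 2) in the corresponding cKO inputs. The single libraries overlapped between regions in WT mice (2.35 to 3.04 in dDG and 2.05 to 2.62 in vDG) and did not in cKO mice (2.57 and 2.81 against 2.52 and 2.37). The vDG IP libraries of WT mice gave 2.73 ± 0.222 (SD, n = 3), those of cKO mice 3.20 ± 0.446 (SD, n = 2), and the IP libraries overlapped the vDG inputs in WT but not in cKO mice. No test was run on the ratio. Mineralocorticoid receptor mRNA exceeded glucocorticoid receptor mRNA in each of the 15 libraries.

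**Figure D2:**
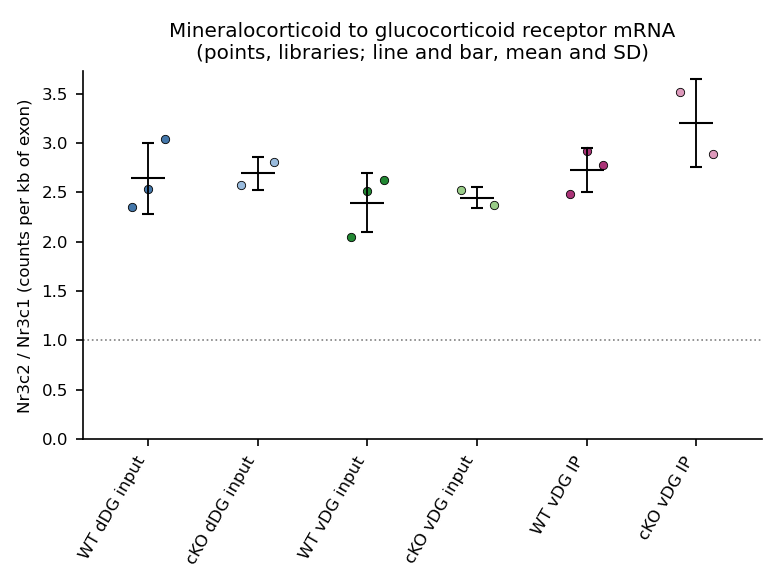
Ratio of Nr3c2 to Nr3c1 counts per kilobase of exon (vertical axis, from 0, no unit) in each library of the 6 groups. Points are libraries, the line with its bar is the mean and SD, and the dotted line marks equal levels. Every library lies between 2.05 and 3.52, and the groups' means run from 2.396 to 3.20.

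Sgk1 followed the same dorsoventral direction as the receptors. It measured 68.8, 63.7 and 64.0 CPM in WT dDG and 39.3, 46.7 and 47.1 CPM in WT vDG input, and in cKO mice 70.3 and 64.96 CPM in the dDG and 44.1 and 43.5 CPM in the vDG. Every dDG library lay above every vDG library. The log2 fold change was -0.57 (SE 0.119, FDR 0.00316) in WT and -0.63 (SE 0.119, FDR 0.000795) in cKO mice.

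The promoter of Sgk1 was examined because glucocorticoid response elements are a defining feature of induced genes, and it is shown beside that of Nr3c2, which moved with it. RefSeq promoter windows of 250 bases before and 50 after a start site were matched by symbol for 7 of the 8 genes, all but Nr3c1, giving 14 windows. The core searched, on both strands, was GNACA and TGTNC separated by 3 bases, and 156 of 32851 promoter windows in the table (0.475%) hold it. Of the 14 windows 1 held it, that of the Sgk1 start at position 21993890 of chromosome 10. The site GAACAGAATGTTC begins 188 bases before that start and 964 bases before the next Sgk1 start downstream. The cAMP response element TGACGTCA, also searched on both strands, was in none of the 14 windows and in 1.79% of all windows. In the sequences below (GRCm38.p6, 5′ to 3′ on the plus strand) capitals mark the response element core.
Sgk1, chr10:21993640-21993939: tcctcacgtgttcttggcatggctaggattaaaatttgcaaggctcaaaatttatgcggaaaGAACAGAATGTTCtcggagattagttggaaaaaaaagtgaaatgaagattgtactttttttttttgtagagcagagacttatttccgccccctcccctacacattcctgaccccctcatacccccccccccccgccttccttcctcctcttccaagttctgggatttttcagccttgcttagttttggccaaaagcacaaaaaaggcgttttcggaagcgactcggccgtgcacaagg
Sgk1, chr10:21994416-21994715: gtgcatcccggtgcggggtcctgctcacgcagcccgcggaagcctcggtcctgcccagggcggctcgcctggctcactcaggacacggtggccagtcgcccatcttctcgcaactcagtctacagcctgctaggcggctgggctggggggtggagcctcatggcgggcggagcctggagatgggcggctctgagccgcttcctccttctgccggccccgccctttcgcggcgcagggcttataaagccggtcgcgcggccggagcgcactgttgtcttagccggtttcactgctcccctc
Nr3c2, chr8:76902080-76902379: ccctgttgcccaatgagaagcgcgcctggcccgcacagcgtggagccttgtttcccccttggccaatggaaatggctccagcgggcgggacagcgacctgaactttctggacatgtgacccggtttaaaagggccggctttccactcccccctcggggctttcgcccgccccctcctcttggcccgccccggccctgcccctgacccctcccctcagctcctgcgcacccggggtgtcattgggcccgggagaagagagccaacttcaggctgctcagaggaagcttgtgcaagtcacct
The first Sgk1 window has 46.3% G and C and 10 CpG dinucleotides, the second 69.7% and 28, and the Nr3c2 window 65.7% and 17. A match of letters is a description and not a binding site.

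Tsc22d3 went the other way. It measured 18.5, 29.0 and 22.5 CPM in WT dDG and 40.6, 32.4 and 33.5 CPM in WT vDG input, and 18.3 and 17.7 CPM in cKO dDG against 40.0 and 30.7 CPM in cKO vDG input. All 5 vDG libraries lay above all 5 dDG libraries, with the closest pair at 30.7 and 29.0 CPM. The log2 fold change was 0.60 (SE 0.159, FDR 0.0154) in WT and 0.97 (SE 0.149, FDR 9.25e-05) in cKO mice. The WT call rested on both libraries numbered 1, since the FDR was 0.0625 without WT vDG input replicate 1 and 0.0724 without WT dDG input replicate 1.

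Crhr1 had higher levels in the vDG and passed in cKO mice alone, and the genotypes' difference did not pass (given with the genotype results). It measured 1.80, 2.38 and 2.22 CPM in WT dDG and 2.95, 2.74 and 2.88 CPM in WT vDG input, and 1.33 and 1.36 CPM in cKO dDG against 4.45 and 3.38 CPM in cKO vDG input. No vDG library reached down to a dDG library in either genotype. The log2 fold change was 1.54 (SE 0.32, FDR 0.00201) in cKO mice and 0.41 (SE 0.269, 95% interval -0.16 to 0.98, FDR 0.354) in WT mice, where it did not pass. With the genotypes fitted together the difference was 0.85 (FDR 0.0114). Of the 8 genes, 3 were below (Nr3c1, Nr3c2, Sgk1) and 2 above (Tsc22d3, Crhr1) without overlap between the 5 vDG and 5 dDG inputs, against 6.01% and 8.25% of 16306 genes.

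Fkbp5, Hsd11b1 and Crhr2 did not pass in either genotype in the fits without a block. Fkbp5 measured 80.8, 65.7 and 62.1 CPM in WT dDG and 62.7, 52.9 and 50.9 CPM in WT vDG input, with fitted differences of -0.33 (SE 0.129, FDR 0.09998) in WT and -0.13 (SE 0.132, FDR 0.553) in cKO mice on the log2 scale. The regions overlapped in both genotypes, and with the replicate number as a block Fkbp5 passed in WT mice (-0.33, FDR 0.0391). Hsd11b1 differed by -0.061 (95% interval -0.42 to 0.30) in WT and -0.18 (95% interval -0.57 to 0.21) in cKO mice on the log2 scale, and Crhr2 by 0.56 (95% interval -0.54 to 1.67) and 0.43 (95% interval -0.93 to 1.78).

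Cell type markers moved along the same axis. The summed level of 6 granule cell markers was 989 to 1119 CPM in WT vDG and 1523 to 1540 CPM in WT dDG input (1022 to 1036 and 1505 to 1514 CPM in cKO), with 4 of 6 markers lower in the WT vDG and 5 of 6 in the cKO vDG, the direction of Nr3c1, Nr3c2 and Sgk1. Summed markers of interneurons (464 to 524 against 294 to 357 CPM in WT, 4 of 8 higher), mossy cells (183 to 220 against 44.8 to 56.2 CPM, 2 of 4 tested higher) and CA pyramidal cells (390 to 392 against 141 to 187 CPM, 4 of 8 higher and 1 lower) went the direction of Tsc22d3 and Crhr1. Choroid plexus markers summed to 31.8 to 148 CPM in WT dDG input and to 23.3 to 29.2 CPM in WT vDG input. In cKO mice they summed to 18.1 to 22.99 CPM in the dDG and 22.6 to 35.6 CPM in the vDG. Of this list Kl measured 16.2 to 27.3 CPM over all libraries, IP included, so every sum holds at least 16.2 CPM of Kl. Ttr ran from 0.119 to 120 CPM and was called lower in the WT vDG and higher in the cKO vDG. Of astrocyte markers 1 of 6 was higher in the WT vDG and 1 of 6 lower in the cKO vDG, of oligodendrocyte lineage markers 3 and 2 of 9 were lower, and of 11 immediate early genes 1 was higher in each genotype with 1 lower in WT and 3 lower in cKO mice. No marker of microglia, endothelial and mural cells or meninges passed in either regional comparison. None of these markers was at 0 in every library of an input group, and their part in the dorsoventral differences was not tested.

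**Figure D3:**
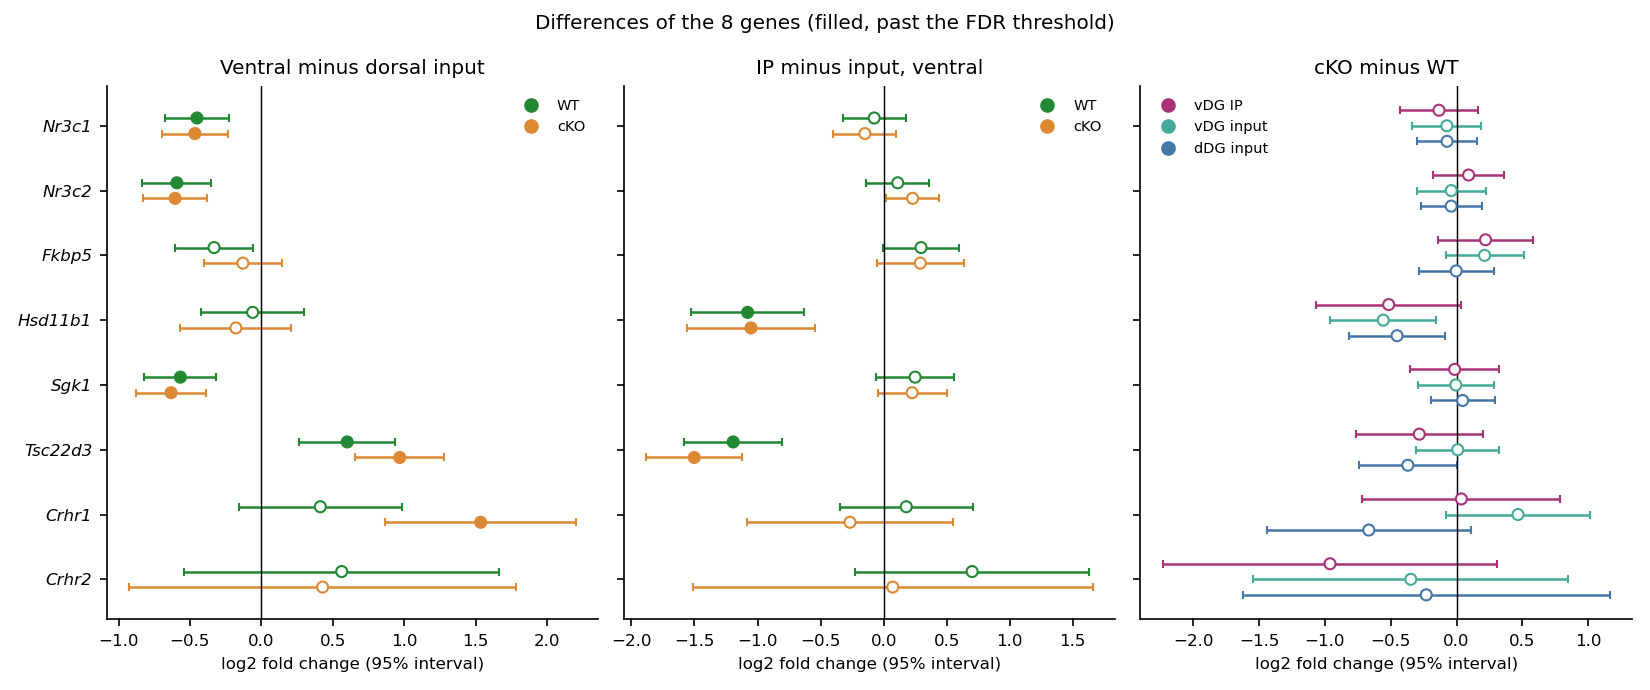
Log2 fold change with its 95% interval (horizontal axis) for the 8 genes (vertical axis) in vDG against dDG input, in IP against input, and in cKO against WT. Colours are genotypes in the left and middle panels and fractions in the right panel, and filled points passed the FDR threshold of their comparison. Nr3c1, Nr3c2 and Sgk1 are filled on the negative side and Tsc22d3 on the positive side of the regional panel in both genotypes, Hsd11b1 and Tsc22d3 are filled in the IP panel, and no point is filled for genotype.

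IP was compared with input to find which of the 8 mRNAs stood above or below their whole vDG level in the polysome-bound fraction. Whole tissue holds other cells as well, so this comparison cannot tell the mix of cell types from ribosome association. Hsd11b1 and Tsc22d3 were depleted in the IP by 2.07- to 2.83-fold in both genotypes, and none of the 8 was enriched. In WT mice 2 of 8 genes passed, against 23.9% of 15011 genes, with 7.72% of all genes enriched (at least 25% above input) and 11.4% depleted (a fold under 0.5). In cKO mice 2 of 8 passed, against 27.5% of 15126 genes, with 11.4% enriched and 10.7% depleted. The median log2 fold change of the 8 genes was 0.15 in WT and -0.038 in cKO, beside 0.0029 and -0.028 over all genes. Scaling by library size alone shifted the median of all genes to -0.13 in WT and -0.20 in cKO, and 487 of 3509 called genes were then higher in WT IP instead of 1160 of 3582, and 751 of 3981 instead of 1790 of 4167 in cKO IP, while the same count of 2 members was called.

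Hsd11b1 measured 8.24, 5.68 and 7.99 CPM in WT IP against 15.9, 11.5 and 18.2 CPM in WT input, and 5.47 and 4.77 CPM in cKO IP against 10.9 and 9.51 CPM in cKO input. Every IP library lay below every input library. The log2 fold change was -1.08 (SE 0.209, FDR 0.00176) in WT and -1.05 (SE 0.235, FDR 0.00588) in cKO mice. The cKO call was lost (FDR 0.0658) without cKO vDG input replicate 1.

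Tsc22d3 measured 18.2, 17.7 and 11.5 CPM in WT IP, and 14.3 and 11.7 CPM in cKO IP, against the vDG input levels of 30.7 to 40.6 CPM given above. The IP and input libraries did not overlap. The log2 fold change was -1.19 (SE 0.181, FDR 0.000274) in WT and -1.50 (SE 0.176, FDR 8.19e-05) in cKO mice. For Hsd11b1 and Tsc22d3 alike all 5 IP libraries lay below all 5 vDG inputs, as they did for 16% of 16093 genes. Astrocyte markers summed to 63.1 to 108 CPM in WT IP and 475 to 549 CPM in WT input. Interneuron (166 to 190 against 464 to 524 CPM) and oligodendrocyte lineage sums (180 to 225 against 429 to 504 CPM) were also lower in WT IP. So were those of microglia (2.85 to 5.05 against 23.2 to 37.95 CPM) and meninges (5.21 to 7.72 against 17.1 to 23.9 CPM). Granule cell sums were higher (1216 to 1341 against 989 to 1119 CPM), and those of the other cell types overlapped. The part of these cell types in the Hsd11b1 and Tsc22d3 values was not tested.

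The other 6 genes did not pass within a genotype with all libraries and no block. The input RNA was taken from the homogenate before the IP, so an IP and an input can share a pool, and with the replicate number as a block Nr3c2 (0.23, FDR 0.023) and Fkbp5 (0.29, FDR 0.0143) passed in cKO mice and the count of WT calls stayed at 2. Nr3c1 measured 82.2, 74.5 and 77.8 CPM in WT IP and 66.3 and 76.3 CPM in cKO IP, a log2 fold change of -0.075 (95% interval -0.33 to 0.17) in WT and -0.15 (95% interval -0.40 to 0.10) in cKO mice. Nr3c2 measured 172, 183 and 182 CPM in WT IP and 196 and 186 CPM in cKO IP, a log2 fold change of 0.11 (95% interval -0.14 to 0.36) in WT and 0.23 (95% interval 0.020 to 0.44, FDR 0.0974) in cKO mice. The cKO IP libraries of Nr3c2 were both above the cKO inputs, whereas the WT libraries overlapped.

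Fkbp5 measured 80.4, 61.5 and 66.1 CPM in WT IP and 68.3 and 93.4 CPM in cKO IP, and Sgk1 62.5, 51.9 and 46.7 CPM in WT IP and 49.0 and 57.4 CPM in cKO IP. Their log2 fold changes were 0.30 (SE 0.14, FDR 0.145) and 0.25 (SE 0.143, FDR 0.231) in WT, and 0.29 (SE 0.159, FDR 0.202) and 0.23 (SE 0.126, FDR 0.208) in cKO mice. Neither passed within a genotype with all libraries and no block, and without cKO vDG IP replicate 1 Fkbp5 passed in cKO mice (0.54, FDR 0.00351), with a range of 0.053 to 0.54 over the libraries left out. With both genotypes fitted together they differed by 0.33 (FDR 0.0218) and 0.27 (FDR 0.0277). Crhr1 measured 3.54, 2.82 and 3.51 CPM in WT IP and 4.57 and 2.21 CPM in cKO IP, and its fold change was 0.18 (95% interval -0.35 to 0.70) in WT and -0.27 (95% interval -1.09 to 0.55) in cKO mice on the log2 scale. Crhr2, at 0.955, 1.07 and 1.09 CPM in WT IP and 0.333 and 0.723 CPM in cKO IP, had intervals of -0.23 to 1.63 in WT and -1.51 to 1.66 in cKO mice.

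cKO and WT mice were compared to ask whether loss of functional serotonin receptor 4 moved the stress axis genes. None of the 8 passed in vDG IP (FDR under 0.1), vDG input or dDG input (FDR under 0.05) by edgeR or by DESeq2, and at an unadjusted p under 0.05 there were 0, 1 and 1 of them, where 1674 of 14300, 2338 of 15786 and 1881 of 15383 genes were. Over all genes 0.42% of 14300 passed in vDG IP, 2.44% of 15786 in vDG input and 0.0325% of 15383 in dDG input by edgeR. By DESeq2 these shares were 2.47%, 3.83% and 1.23%. The median log2 fold change of the 8 was -0.074, -0.023 and -0.15 in the 3 comparisons, beside -0.0019, 0.011 and -0.022 over all genes.

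The gene at the unadjusted threshold was Hsd11b1, whose cKO libraries were below all WT libraries in each fraction. Its levels were 5.47 and 4.77 CPM against 5.68 to 8.24 CPM in vDG IP, 10.9 and 9.51 CPM against 11.5 to 18.2 CPM in vDG input, and 10.0 and 13.0 CPM against 14.7 to 17.9 CPM in dDG input. The log2 fold changes were -0.52 (SE 0.256, FDR 0.449), -0.56 (SE 0.194, FDR 0.148) and -0.45 (SE 0.17, FDR 0.306) by edgeR's quasi-likelihood test. Libraries separated in this direction for 16% of all genes in vDG IP, 19.1% in vDG input and 15.7% in dDG input, and in all 3 for 2.2% of 13929 genes. Astrocyte markers were lower in the cKO vDG input as well (343 to 365 against 475 to 549 CPM in sum, 3 of 6 called, none at 0) and summed to 345 to 455 against 467 to 504 CPM in the dDG. Summed markers of microglia (14.98 to 21.3 against 23.2 to 37.95 CPM, 0 of 6 called), interneurons (387 to 391 against 464 to 524 CPM, 0 of 8 called) and CA pyramidal cells (272 to 291 against 390 to 392 CPM, 2 of 8 called) were below WT in the vDG input too, and Ttr (choroid plexus) and Igf2 (meninges) were called higher. The part of these cell types in the Hsd11b1 values was not tested.

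The receptors and Sgk1 had the narrowest intervals of the genotype comparison. For Nr3c1 the log2 fold change was -0.13 (95% interval -0.43 to 0.16) in vDG IP, -0.073 (-0.34 to 0.19) in vDG input and -0.072 (-0.30 to 0.16) in dDG input. For Nr3c2 it was 0.092 (-0.18 to 0.36), -0.040 (-0.30 to 0.22) and -0.040 (-0.27 to 0.19), and for Sgk1 -0.014 (-0.35 to 0.33), -0.0052 (-0.29 to 0.28) and 0.047 (-0.20 to 0.29). Fkbp5 gave 0.22 (-0.14 to 0.58), 0.21 (-0.083 to 0.51) and -0.0021 (-0.29 to 0.28), and Tsc22d3 -0.28 (-0.76 to 0.20), 0.0091 (-0.31 to 0.32) and -0.37 (-0.74 to 0.0048). For Nr3c1 both cKO libraries lay below all WT libraries in vDG input and in dDG input, and for Tsc22d3 in dDG input. Libraries separated in that direction for 19.1% of all genes in vDG input and 15.7% in dDG input. Both cKO vDG IP libraries of Nr3c2 lay above all WT libraries, a direction whose share over all genes was not counted.

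Crhr2 had the widest intervals, on 6 to 28 counts per library. Its cKO libraries (0.333 and 0.723 CPM) lay below the 3 WT libraries (0.955 to 1.09 CPM) in vDG IP, with a log2 fold change of -0.96 (95% interval -2.23 to 0.31, FDR 0.547). In vDG input it was -0.35 (-1.54 to 0.85) and in dDG input -0.23 (-1.62 to 1.16).

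For Crhr1 the cKO libraries stood on opposite sides of the WT libraries in the vDG and dDG inputs. Both cKO vDG inputs (4.45 and 3.38 CPM) lay above the 3 WT vDG inputs (2.74 to 2.95 CPM), and both cKO dDG inputs (1.33 and 1.36 CPM) lay below the 3 WT dDG inputs (1.80 to 2.38 CPM). The log2 fold changes were 0.47 (SE 0.264, FDR 0.426) and -0.67 (SE 0.362, FDR 0.484), and neither passed. In vDG IP it was 0.037 (95% interval -0.72 to 0.79). Libraries separated upward in vDG input for 13.2% of all genes, and upward in the vDG with downward in the dDG for 1.53% of 15117 genes. The difference between the regions' genotype effects was 1.12 on the log2 scale (SE 0.4, FDR 0.26 by edgeR's interaction test). That test called 0 of 16306 genes (0%), with 2010 at an unadjusted p under 0.05 and 250 called by DESeq2, whose own filter gave Crhr1 no adjusted p.

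The same test of the regional difference gave, for Nr3c1, Nr3c2 and Sgk1, -0.016 (95% interval -0.33 to 0.30), -0.014 (-0.36 to 0.33) and -0.066 (-0.42 to 0.29), and for Tsc22d3 0.37 (-0.15 to 0.88, FDR 0.584). None of the 8 passed. The test of whether the difference between IP and input changed with genotype passed for none of the 8 genes, with Hsd11b1 at 0.058 (-0.62 to 0.73) and Tsc22d3 at -0.28 (-0.86 to 0.31). edgeR called 0 of 16093 genes (0%) in that test, with 497 at an unadjusted p under 0.05, and DESeq2 called 0.

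The genes around the receptors were described by 7 lists. Of the other steroid receptors of the NR3 family, 3 of 4 were tested and 2 were higher in the vDG in both genotypes, where 15.3% and 17% of all genes passed. Esr1, the oestrogen receptor alpha gene, was 5.78-fold higher in WT (FDR 0.000398) and 10.7-fold higher in cKO mice (FDR 1.26e-05), on levels of 2.37 to 4.22 CPM in WT vDG and 0.225 to 0.752 CPM in WT dDG input. Pgr, the progesterone receptor gene, was 1.47-fold (FDR 0.00351) and 1.68-fold (FDR 2e-04) higher. The steroid receptor genes thus differed in direction along the axis, with Nr3c1 and Nr3c2 lower and Esr1 and Pgr higher in the vDG.

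Receptor chaperones and coregulators were 10 genes each, all tested. Between regions 1 chaperone and 1 coregulator passed in WT mice, where 15.3% of all genes passed. In cKO mice 1 chaperone and 3 coregulators passed, where 17% of all genes did. Among chaperones Hsp90aa1 was higher in the WT vDG (log2 fold change 0.87, FDR 5.35e-05) and Ppp5c, a phosphatase bound to the receptor complex, in the cKO vDG (0.44, FDR 0.0198). Among coregulators Ncoa3 was lower in the WT vDG (-0.48, FDR 0.0122) and Crebbp (-0.40, FDR 0.0141) and Ncoa1 (-0.43, FDR 0.0101) were among those lower in the cKO vDG. In the IP, 2 chaperones (Hsp90ab1 and Ppp5c) and 2 coregulators (Ncor1 and Smarca4) were above WT input, and 4 and 5 above cKO input, where 1160 of 15011 genes in WT and 1790 of 15126 genes in cKO were higher.

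Between genotypes 2 of the 10 chaperones passed in vDG input, where Hsp90aa1 and Hsp90ab1, the cytosolic HSP90 genes, were lower in cKO mice, and 2.44% of all genes passed. That total of 385 genes fell to 6 without cKO vDG input replicate 1 and to 50 without replicate 2, and was 235 to 638 without 1 of the 3 WT libraries. Hsp90aa1 measured 402 to 467 CPM in cKO and 696 to 858 CPM in WT vDG input (log2 fold change -0.87, FDR 0.00237), and Hsp90ab1 788 to 981 and 1342 to 1477 CPM (-0.68, FDR 0.007). For both genes the cKO libraries lay below all WT libraries, as they did for 19.1% of 15786 genes. In vDG IP the same comparison gave -0.66 (FDR 0.195) and -0.61 (FDR 0.116), and in dDG input 0.30 (FDR 0.379) and -0.088 (FDR 0.830). The change of the genotype effect with region was -1.19 for Hsp90aa1 (FDR 0.0997) and -0.60 for Hsp90ab1 (FDR 0.193), and did not pass.

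Other glucocorticoid-induced genes split by direction. Of 23 tested in input, 4 were higher and 4 lower in the WT vDG, and 4 higher and 4 lower in the cKO vDG, where 15.3% and 17% of all genes passed. Dusp1, a phosphatase that limits MAP kinases, was higher in both (1.91- and 1.88-fold), as were Fam107a (1.53- and 1.34-fold) and the metallothionein Mt2 (1.28- and 1.55-fold). The transcription factors Klf9 (1.56- and 1.48-fold) and Cebpb (2.91- and 1.87-fold) were lower in both.

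The other calls of this list fell in a single genotype. Pdk4 was higher (1.78-fold, FDR 0.0404) and Cebpd (1.93-fold, FDR 0.00118) and Mt1 (1.43-fold, FDR 0.0126) lower in the WT vDG. Klf15 was higher (1.96-fold, FDR 0.000882) and Bcl6 (1.32-fold, FDR 0.0196) and Cdkn1a (1.41-fold, FDR 0.0437) lower in the cKO vDG. Mt1 had a log2 difference of -0.52 in WT and 0.33 (FDR 0.116) in cKO mice, and the change with genotype was 0.85 (FDR 0.15). That change did not pass for any of these 6 genes, with FDR from 0.15 (Mt1) to 0.999 (Bcl6).

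In the IP the induced genes lay on both sides of the input. In WT mice 3 of 23 were higher (Bcl6, Per1 and Rasd1) and 8 lower, and in cKO mice 3 of 22 were higher and 10 lower, where 23.9% and 27.5% of all genes passed. The 3 with the lowest FDR in WT mice were Mt2 (16.3-fold lower), Fam107a (8.09-fold lower) and Gjb6, a connexin of astrocytes (11.2-fold lower), and in cKO mice they were 16.2-, 8.24- and 10.2-fold lower. Mt2 measured 4.14 to 6.12 CPM in WT IP and 76.8 to 83.8 CPM in WT input. Between genotypes 2 of 23 passed in vDG input, where 2.44% of all genes passed, both with an FDR close to the threshold. Mt2 was 1.405-fold higher (FDR 0.0427) and Gjb6 1.57-fold lower (FDR 0.0476) in cKO mice. No gene of the list passed in vDG IP or dDG input.

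**Figure D4:**
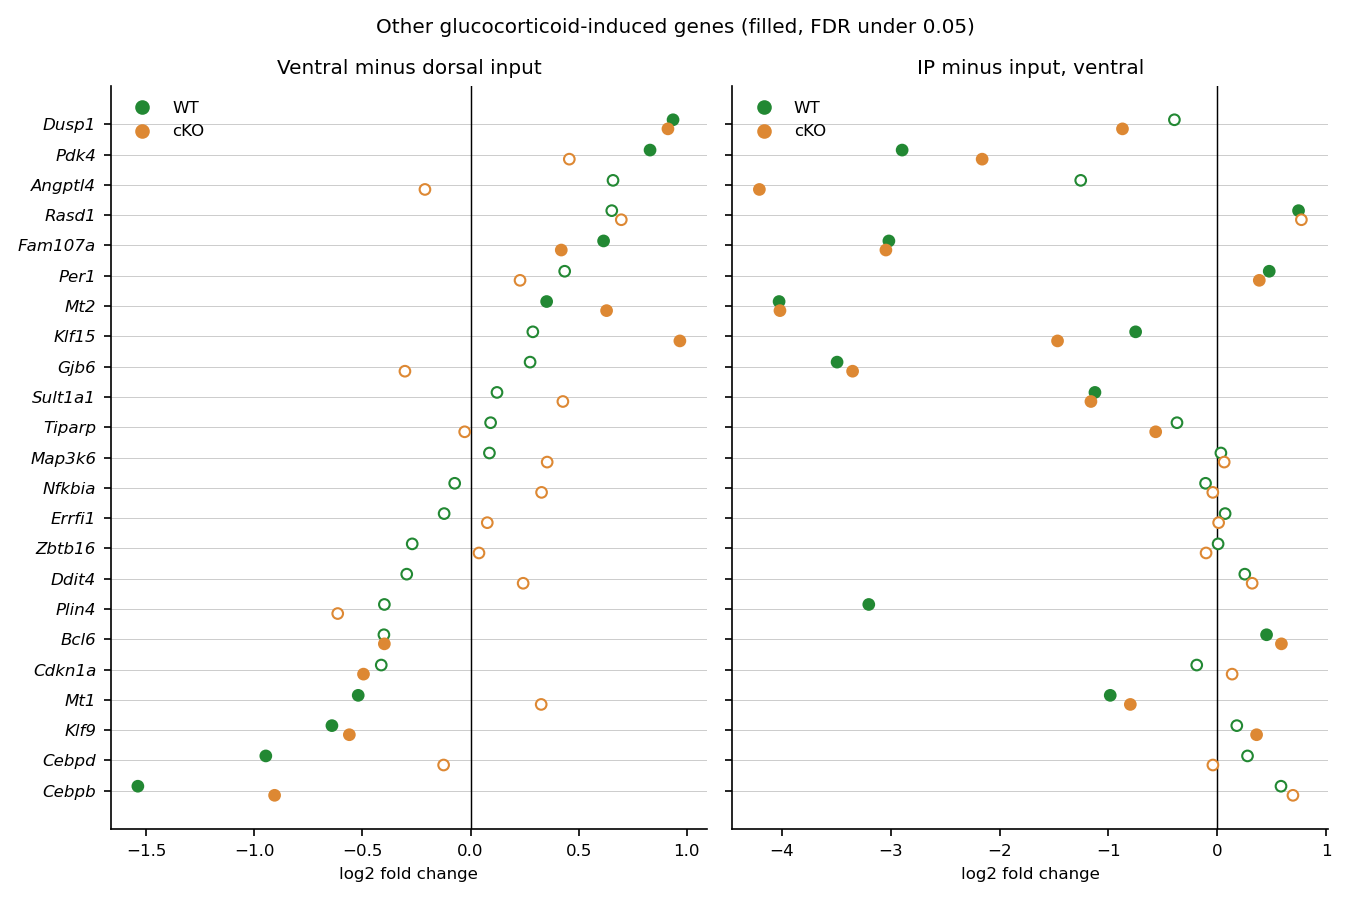
Log2 fold change (horizontal axes) of the 23 other glucocorticoid-induced genes tested in input (vertical axis, ordered by the WT regional value) in vDG against dDG input and in IP against input. Green is WT and orange cKO, filled points had an FDR under 0.05, and a gene missing a point was not tested there. Dusp1, Fam107a and Mt2 are filled to the right and Klf9 and Cebpb to the left in both genotypes of the regional panel, and Mt2, Gjb6 and Fam107a lie far to the left in the IP panel.

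Among SGK kinases and mineralocorticoid effectors 4 of 7 genes were tested in both regional comparisons. Nedd4l, the ubiquitin ligase that Sgk1 phosphorylates, was lower in the vDG, as Sgk1 was, by 1.33-fold in WT (FDR 0.0227) and 1.62-fold in cKO mice (FDR 0.000352). In the IP, Scnn1a, a subunit of the epithelial sodium channel, was 1.35-fold above WT input (FDR 0.046) and 1.74-fold above cKO input (FDR 0.00158), and Ndrg1, another substrate of the kinase, was 3.21- and 3.02-fold below. No gene of this list differed between genotypes.

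Of the genes for corticosteroid metabolism and transport 5 of 10 were tested, and Cyp11a1, which starts steroid synthesis, was lower in the WT vDG (2.30-fold, FDR 0.0443) on levels under 3.01 CPM. Hsd11b2, which inactivates the steroid, did not exceed 0.248 CPM in any library. The ligands of the CRH receptors were near the limit of detection. Crh did not exceed 0.549 CPM, and Ucn2 and Ucn3 had no counted read in any of the 15 libraries, which allows up to 0.0985 to 0.158 CPM (3 counts per library, counting error only). Crhbp, which binds and sequesters the hormone, measured 2.42 to 2.44 CPM in cKO vDG and 0.781 to 0.841 CPM in cKO dDG input (2.98-fold higher, FDR 0.00783), and 2.49 to 3.26 and 1.03 to 1.996 CPM in WT mice (1.86-fold, FDR 0.0657). In the IP it was 6.49-fold lower than in WT input (FDR 8.77e-05) and 12.3-fold lower than in cKO input (FDR 0.00154).

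The genes whose pattern over the 15 libraries was most like that of each member were found by the root mean square difference of centred log2 CPM, among 10374 genes with a mean of at least 5 CPM. They were Tfdp2 (0.0902) and Dtna (0.0943) for Nr3c1, and AB335951 (0.101) and Mef2c (0.10996) for Nr3c2. Mef2c (0.121) was also the nearest to Sgk1, with Tle1 (0.128) next. Hinfp (0.111) and Vwa9 (0.128) were nearest to Fkbp5, 9330182L06Rik (0.199) and Elovl5 (0.229) to Hsd11b1, and Nap1l5 (0.236) and Epb41l2 (0.257) to Tsc22d3. For Crhr1 (10375 candidates) they were Zfp467 (0.214) and Mrps6 (0.246), and Crhr2, with a mean under 1 CPM, was left out. The median difference over all candidates ran from 0.329 for Fkbp5 to 0.684 for Hsd11b1, and all points share their libraries and depth.

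Across the 6 groups the order of mean levels followed region for the receptors and fraction for Tsc22d3. For Nr3c1, WT dDG input (110 ± 5.13 CPM, SD, n = 3) and cKO dDG input (105 ± 0.629 CPM, SD, n = 2) led, and the 4 vDG groups overlapped from one to the next. For Nr3c2 and Sgk1 the dDG inputs overlapped each other and stood apart from the vDG groups. Among these the IP means came before the input means, with overlap between WT IP and WT input libraries. For Tsc22d3 the vDG inputs led (35.5 ± 4.44 CPM, SD, n = 3, in WT), then the dDG inputs, then the IP libraries (13.0 ± 1.82 CPM, SD, n = 2, in cKO, the lowest), with the cKO dDG inputs overlapping the WT IP libraries. For Fkbp5 every neighbouring pair of groups in the order overlapped, from 55.5 ± 6.28 CPM (SD, n = 3) in WT vDG input to 80.8 ± 17.8 CPM (SD, n = 2) in cKO vDG IP.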

How the data were processed

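RNA from TRAP IP and whole tissue input was amplified (NuGEN Ovation V2) and sequenced as paired ends. The authors trimmed reads with Trim Galore, aligned them with STAR 2.4.2a to mm10, removed duplicates with SAMtools 0.1.19-444 and counted genes with HTSeq. The deposited counts are unnormalized reads per gene, with no molecular identifiers and no strand setting stated, so limits from a count of 0 cover counting error only, and antisense reads cannot be told apart. Reads without a gene (12.6 to 20.9% of the total) and ambiguous reads (2.88 to 9.60%) were left out. The 5 deposited tables of the authors' own comparisons (fold changes and p-values) were not used.

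Each comparison was fitted on its own groups with edgeR 4.0.16 (R 4.3.3; TMM scaling, filterByExpr, quasi-likelihood F-test), with Benjamini-Hochberg adjustment over all genes tested. The FDR threshold was 0.05, and 0.1 for cKO against WT in IP, the thresholds the study used. Levels are CPM with TMM factors over all 15 libraries, so their ratios differ slightly from fitted fold changes, and 95% intervals come from the fit. Alternatives were other scalings, count filters, DESeq2 1.42.0, 1 fit over all groups, both genotypes together, a replicate block and leaving out each library. The fits across all genes were tested on simulated data. The 8 genes were named in every comparison, and in the interaction tests by count with values for some. From the pathway lists, genes past the threshold in a regional or genotype comparison were named, with up to 3 per list for IP against input. The values of 1 gene of these lists are not reported here. Members and lists were chosen with earlier results of these data known. Promoter sequences are from RefSeq (GRCm38.p6).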

Additional observations from a re-analysis of the deposited data

Results flagged for a closer look

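The change of the Crhr1 genotype effect between regions was singled out because the cKO libraries lay on opposite sides of the WT libraries in vDG and dDG input. Its size was 1.12 on the log2 scale (FDR 0.26 by edgeR's interaction test), so it did not pass the threshold over all genes. It kept its sign in the 17 alternatives run, from 0.90 without cKO vDG input replicate 1 to 1.31 without cKO vDG input replicate 2.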

How the results depend on the processing

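The count of members called was within 1.5 times its value in 118 of the alternatives run. It became 4 for WT IP against input with both genotypes fitted together (Fkbp5 0.33 and Sgk1 0.27 joined), and 4 for cKO IP against input with the replicate block (Nr3c2 0.23, FDR 0.023; Fkbp5 0.29, FDR 0.0143). Leaving out each library in turn gave 1 to 3 members for cKO IP against input, 3 to 4 for WT vDG against dDG, 2 for WT IP against input, 5 for cKO vDG against dDG and 0 for genotype and both interactions. Same-numbered libraries correlated at -0.329 to 0.464 in WT IP and input, at 0.441 in cKO IP and input, at -0.111 to 0.384 between WT regions and at 0.158 between cKO regions. Differently numbered libraries correlated at -0.591 to 0.612 in WT IP and input and at -0.427 to 0.224 between WT regions. With 2 libraries per cKO group, the differently numbered pairs give the same values with the sign reversed (-0.441 and -0.158). No source states that a number marks a shared pool, so whether the numbers pair the libraries is unsettled. The cKO dDG numbers were taken from the titles, and the deposited data carry other replicate numbers for these libraries, so block values that include them rest on the titles. With the replicate block Fkbp5 also passed in WT vDG against dDG (-0.33, FDR 0.0391), while the counts for WT IP against input (2), cKO vDG against dDG (5) and genotype (0) did not change.

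Differences changed sign 35 times, each in a value that had not passed. Library size alone gave -0.018 for Nr3c2 in WT IP against input, -0.098 for Crhr2 in cKO IP against input and 0.018 for Sgk1 in cKO against WT vDG input. The replicate block gave 0.020 for Nr3c2, 0.042 for Sgk1 and -0.038 for Tsc22d3 in cKO against WT vDG input, and 0.036 for Nr3c2 in dDG input. Fkbp5 in cKO against WT dDG input was 0.0084 with DESeq2 size factors, 0.0083 with DESeq2 and 0.0032 in the fit of all groups. Leaving out each library gave -0.84 to 0.18 for Crhr1 and -0.59 to 0.55 for Crhr2 in cKO IP against input, -0.21 to 0.098 for Hsd11b1 in WT vDG against dDG, and -0.34 to 0.031 for Fkbp5 and -0.36 to 0.020 for Hsd11b1 in cKO vDG against dDG. For cKO against WT it gave -0.13 to 0.11 for Sgk1, -0.58 to 0.47 for Crhr1 and -0.023 to 0.42 for Fkbp5 in vDG IP. In vDG input it gave -0.088 to 0.039 for Sgk1, -0.19 to 0.19 for Tsc22d3 and -0.11 to 0.020 for Nr3c2. In dDG input it gave -0.10 to 0.12 for Fkbp5, -0.089 to 0.047 for Nr3c2, -0.018 to 0.11 for Sgk1 and -0.59 to 0.032 for Crhr2. The cause was not tested.

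Over all genes, cKO against WT called 60 genes in vDG IP, 385 in vDG input and 5 in dDG input by edgeR and 353, 605 and 189, in that order, by DESeq2. With no count filter these were 379, 660 and 378, and in the fit of all groups 470, 140 and 0. With the replicate block 137 were called in dDG input, and at an FDR under 0.05 none in vDG IP. Library size alone called 115 in vDG IP. For regional calls in cKO mice the fit of all groups gave 1360 instead of 2642, and for IP against input both genotypes together gave 7123 instead of 3582. The test of genotype by region called 250 genes by DESeq2, 362 with no count filter and 11 with the replicate block, and that of genotype by fraction 12 with no count filter, against 0 in each by edgeR as reported. Leaving out each library in turn called 2431 to 4225 genes for IP against input in WT and 2252 to 4344 in cKO mice, 1653 to 2196 and 1428 to 3084 for region, 0 to 184, 6 to 638 and 0 to 130 for genotype in IP, vDG input and dDG input, and 0 to 48 for the interaction with region and 0 for that with fraction. Depth limits Crhr2, with 6 to 28 counts per library.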
